A study of Chlorella variabilis with 6 samples.

Results

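In cultures of the unicellular green alga Chlorella variabilis, 6 genes of the DNA synthesis machinery had higher transcript levels in the line LOG OX1 than in the wild type (WT). They are the loci listed as DNA polymerase (CHLNCDRAFT_139024), DNA polymerase epsilon catalytic subunit (CHLNCDRAFT_26745), DNA polymerase alpha subunit B (CHLNCDRAFT_10114), DNA primase large subunit (CHLNCDRAFT_8099), proliferating cell nuclear antigen or PCNA (CHLNCDRAFT_59751) and DNA topoisomerase II (CHLNCDRAFT_137783). The 6 loci were taken by name from the replication genes that the study listed as higher in LOG OX1, and they make up 6 of the 9625 genes in each count table. All 6 were found in the tables by locus tag. Because the difference between LOG OX1 and WT on these same libraries chose the genes, that difference is described here with no p-value, and calls are given only as counts from which nothing is read. The gene names rest on similarity to proteins of other algae, and for these loci the closest named protein was from the brown alga Ectocarpus siliculosus.

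RNA was sequenced from 3 WT and 3 LOG OX1 cultures at 14 days post inoculation (dpi), harvested 1 h before the dark phase. WT was the untransformed strain NC64A. LOG OX1 was the same strain transformed with an extra copy of CvarLOG1, a gene for the LONELY GUY enzyme that releases active cytokinin from its nucleotide, under a constitutive 35S promoter in a vector that also carries hygromycin resistance. LOG OX1 is 1 transformed line, chosen by the study for the strongest phenotype among several, and no line with the vector alone is among the groups, so effects of the gene, of transformation and of the site of insertion cannot be told apart. The study picked 14 dpi as a time when LOG OX1 grew more slowly than WT, so cultures of the same age need not have been in the same growth phase.

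DNA replication in eukaryotes starts with the polymerase alpha and primase complex, which lays down a short RNA and DNA primer at origins and at each lagging strand fragment. Polymerases with higher fidelity then extend the primers while held on the template by the ring of PCNA, and topoisomerases remove the twists and links that copying leaves in the DNA. In green algae kept in light and dark periods, the genes of this machinery are commonly expressed in step with the cell cycle. In RNA from a whole culture, a larger share of cells in a replicating phase and more transcript per cell cannot be told apart. Flow cytometry in the paper, at the age and hour of these libraries, found a larger share of cells in S phase in LOG OX1 than in WT. How far these shares go with the transcript levels was not tested.

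Total counts ranged from 10180885 to 12546100 per library. CvarLOG1, CHLNCDRAFT_28106, had normalized counts of 227, 227 and 266 in WT and 437, 464 and 409.6 in LOG OX1. The count at this locus thus went with the labels in all 6 libraries. It does not separate transcripts of the native gene from those of the introduced copy. Normalized counts are counts divided by the library size with TMM factors and multiplied by the mean library size. Values of single libraries are given in the order of replicates 1, 2 and 3, and a log2 fold change (log2FC, LOG OX1 over WT) is given with its standard error (SE). Gene lengths without introns were not used here, so the levels of different genes are not compared, and each gene is set against itself between WT and LOG OX1 or as a ratio within a library.

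DNA polymerase, topoisomerase II and PCNA were 2.93 to 3.86 times as abundant in LOG OX1 as in WT, and the polymerase epsilon, polymerase alpha and primase subunits 1.82 to 2.17 times. Together the 6 genes took 193 ± 5.74 CPM (counts scaled to a common library size) in WT and 504 ± 12.3 CPM in LOG OX1 (SD, n = 3), a ratio of 2.61. All 6 genes were called higher, at a fold change of at least 1.5 and an adjusted p of at most 0.05 by edgeR's quasi-likelihood test, which 14.0% of the 9101 genes tested also were (28.6% were called in either direction). The groups of libraries did not overlap for any of the 6, with LOG OX1 the higher, which was also so for 36.9% of all genes tested, while 37.4% did not overlap with LOG OX1 the lower. Since the genes were picked for this difference, nothing is read from either count.

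**Figure D1:**
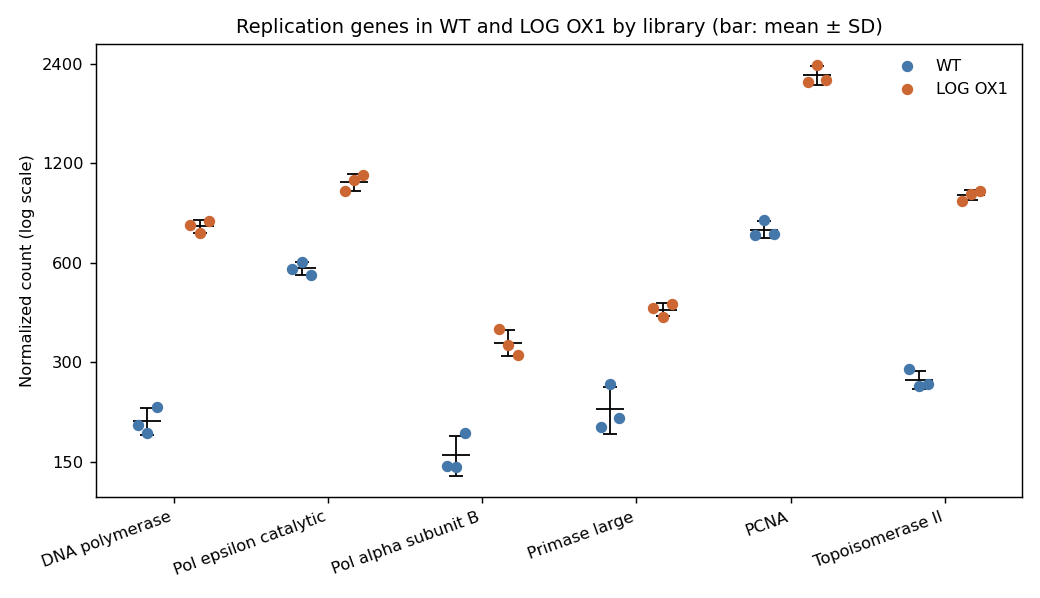
Normalized counts (log scale) of the 6 genes in each library, with WT in blue and LOG OX1 in orange, and the mean ± SD of 3 libraries in black. In each gene the lowest LOG OX1 library lies above the highest WT library, by a factor of 1.60 in the primase large subunit up to 3.34 in DNA polymerase.

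Among the polymerases, the locus listed only as DNA polymerase, an enzyme that adds deoxynucleotides to a primer on a DNA template, had the largest difference. The name does not say which replicative polymerase it encodes. WT libraries had 194, 184 and 220.4 normalized counts of it, and LOG OX1 libraries 783, 737 and 800.0. Every LOG OX1 library held more than 3 times the normalized count of any WT library. The means were 199 ± 18.9 in WT and 773 ± 32.5 in LOG OX1 (SD, n = 3), and log2FC was 1.95 ± 0.076 (SE).

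The study lists primers for quantitative PCR under the names of this gene and of topoisomerase, and they are shown because they define what a second assay of these transcripts amplifies. The paper reports that its quantitative PCR also found some genes of the DNA replication pathway differentially expressed between LOG OX1 and WT. Those measurements were not compared with the counts here. The primers are assigned to these genes by their names alone, as their match to the loci was not checked here. Each is 20 bases long, with a GC content between 50% and 55%, and is printed 5′ to 3′ without marked bases.
DNA polymerase F: ggggcacaaattcaaaagcg
DNA polymerase R: tctgcacgagcttggcatag
DNA Topoisomerase F: agtttgtgcacaaggagctg
DNA Topoisomerase R: gcttgaagcaggcaaacatg

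Polymerase epsilon, whose catalytic subunit extends the leading strand in budding yeast, showed the smallest difference of the 6. It had 576, 606 and 552 normalized counts in WT, against 987, 1065 and 1106 in LOG OX1. The libraries of each group lay close together and the groups were well apart. From a mean of 578 ± 26.8 in WT to 1053 ± 60.5 in LOG OX1 (SD, n = 3), log2FC was 0.87 ± 0.056 (SE). Of the 6 genes it lies nearest to the 1.5-fold threshold. The study's list holds only genes past the threshold, so it names no replication gene just outside it.

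The B subunit of polymerase alpha belongs to the complex of polymerase and primase that starts each new strand. The gene had 146, 145 and 183 normalized counts in WT, and 378, 339 and 316 in LOG OX1. WT replicate 3 stood above the other WT libraries but still below every LOG OX1 library. The group means of 158 ± 21.9 and 344 ± 31.3 (SD, n = 3) give a log2FC of 1.12 ± 0.10 (SE), and without WT replicate 3 it was 1.24.

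The large subunit of primase carries an iron-sulfur cluster and works with the small subunit that joins the ribonucleotides of the primer. Normalized counts of 192, 258 and 203 in WT compare with 437, 412 and 450.1 in LOG OX1. WT replicate 2 was the highest WT library, and the gap to the lowest LOG OX1 library was the narrowest of the 6 genes. The means were 218 ± 35.3 and 433 ± 19.5 (SD, n = 3), log2FC was 0.99 ± 0.099 (SE), and without WT replicate 2 it was 1.13.

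PCNA, the sliding clamp that holds polymerases on DNA and also serves in excision and mismatch repair, had 727, 808 and 734 normalized counts in WT. In LOG OX1 the libraries had 2117, 2383 and 2139. Replicate 2 was the highest library of both groups, but the library titles do not say that a shared replicate number links the cultures. The mean was 756 ± 45.1 in WT and 2213 ± 148 in LOG OX1 (SD, n = 3), and log2FC was 1.55 ± 0.056 (SE).

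Topoisomerase II, which passes DNA duplexes through each other and so separates linked sister molecules, had 286, 255 and 257 normalized counts in WT and 922, 971 and 986 in LOG OX1. In LOG OX1 these were the tightest replicates of the 6 genes, and the groups were far apart. The means of 266 ± 17.1 and 959.6 ± 33.3 (SD, n = 3) correspond to a log2FC of 1.85 ± 0.061 (SE).

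Within a library, the ratio of the counts of a pair of genes does not depend on how libraries are scaled, so the changes of the 6 genes were also set against each other. DNA polymerase had 0.347 ± 0.0487 counts for each count of polymerase epsilon in WT and 0.736 ± 0.0516 in LOG OX1 (SD, n = 3). Topoisomerase II moved in the same way against polymerase epsilon, which had 2.18 ± 0.182 counts per count of topoisomerase II in WT and 1.10 ± 0.0259 in LOG OX1 (SD, n = 3). In both pairs the LOG OX1 libraries lay outside the range of the WT libraries.

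Polymerase alpha subunit B and the primase large subunit, partners in a complex, kept overlapping proportions. Their ratio was 0.761, 0.561 and 0.902 in WT, and 0.864, 0.823 and 0.703 in LOG OX1 (log2 change 0.13 ± 0.22, SE). The range of the WT libraries enclosed all 3 LOG OX1 libraries, so no shift was detectable at this spread. The ratios of polymerase epsilon to either of these subunits overlapped too, with log2 changes of -0.26 ± 0.19 (SE) against the alpha B subunit and -0.14 ± 0.12 (SE) against primase. DNA polymerase and topoisomerase II were the other pair with overlapping ratios, 0.752 ± 0.0928 in WT and 0.806 ± 0.0450 in LOG OX1 (SD, n = 3).

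PCNA stood between these genes. Its ratio to topoisomerase II was 2.85 ± 0.312 in WT and 2.31 ± 0.143 in LOG OX1 (SD, n = 3), with the libraries of the groups just apart. Against polymerase epsilon, PCNA gained, since polymerase epsilon had 0.765 ± 0.0238 counts per PCNA count in WT and 0.477 ± 0.0363 in LOG OX1 (SD, n = 3). Of the 15 pairs among the 6 genes, 11 had ratios that did not overlap between the groups and 4 had ratios that did. Among all 810901 pairs of genes called higher in LOG OX1, the share that did not overlap was 61.1%, so unequal change within a set of higher genes was common and nothing particular to the replication genes is read from it.

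**Figure D2:**
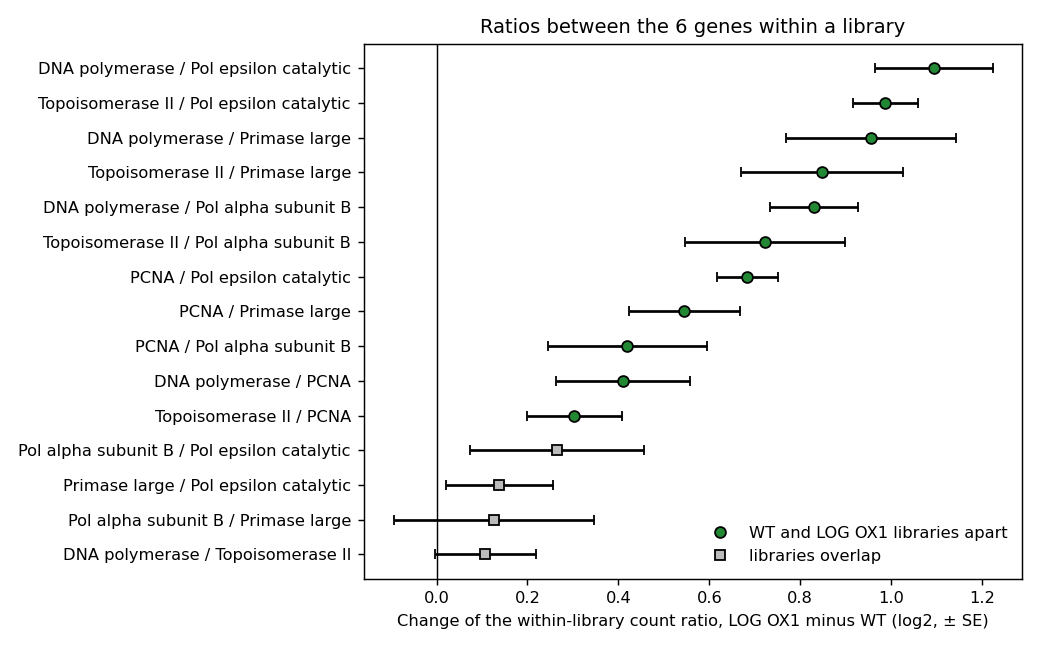
Change of the within-library count ratio for the 15 pairs of the 6 genes, LOG OX1 minus WT on the log2 scale with its standard error, each pair written so that the change is positive. Green circles are the 11 pairs whose libraries do not overlap between the groups and grey squares the 4 that overlap. DNA polymerase against polymerase epsilon changed the most, by 1.09, and DNA polymerase against topoisomerase II the least, by 0.11.

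Spread between replicate cultures differed among the members. The threshold on the adjusted p of the study's list depends on this spread, so these values are a description too. In WT the coefficient of variation was 16.2% for the primase large subunit and 13.9% for polymerase alpha subunit B, where counting alone gives 6.64% and 7.78%. It was 4.64% for polymerase epsilon and 6.43% for topoisomerase II, where counting alone gives 4.08% and 6.02%. In LOG OX1 the primase large subunit varied by 4.50%, below the 4.91% of counting, while PCNA varied by 6.68% against 2.16%. Polymerase alpha subunit B and the primase large subunit, the most variable in WT, also had the widest standard errors of log2FC, 0.10 and 0.099.

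No library was high or low for all 6 genes. WT replicate 1 was below the group mean in 5 of the 6, and its mean deviation over the genes was -0.04 on the log2 scale. The other libraries had mean deviations between -0.01 and 0.02. The widest single deviations were 0.26 for primase in WT replicate 2 and 0.22 for polymerase alpha subunit B in WT replicate 3, which are small beside the fold changes of these genes.

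**Figure D3:**
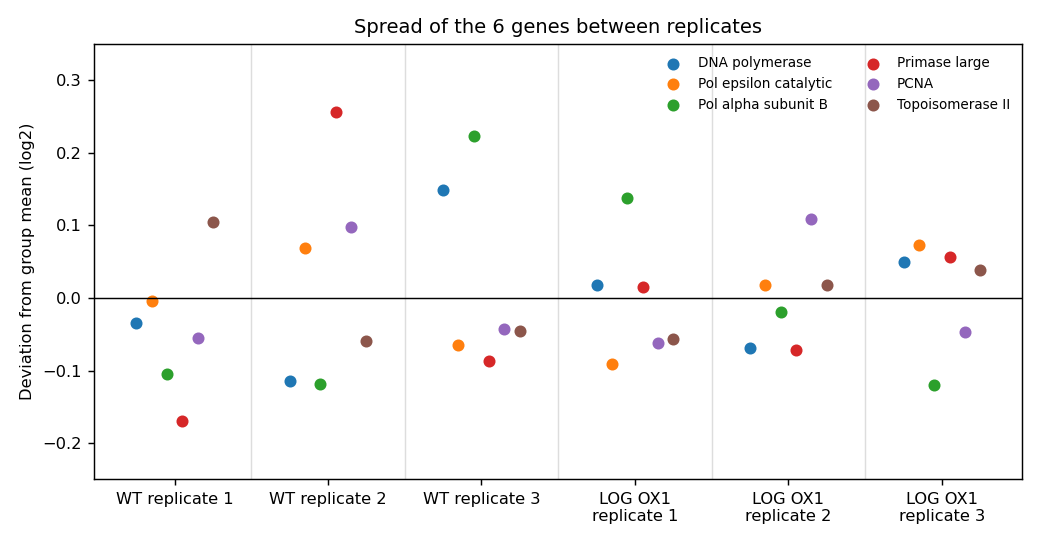
Deviation of each of the 6 genes from its group mean in each library, on the log2 scale of the normalized count. Points lie between -0.17 and 0.26, with different genes at the top in different libraries, and no library has all 6 genes on one side of 0.

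Other genes with a term for DNA replication or DNA repair were taken from the study's list of differentially expressed genes, which holds both directions but only genes past the threshold on these libraries, so their counts are a description as well. Of 9 other genes with a replication term, 8 were called higher and 1 lower. Of 5 with a repair term only, 4 were called higher and 1 lower, beside 14.0% called higher and 14.6% called lower among all genes tested. Median log2FC was 1.18 for these replication genes, 1.36 for the repair genes and 1.33 for the 6 members, against 0.0010 for all genes tested. Every listed gene had passed the study's threshold on these same libraries, so nothing is read from the distance between these medians and that of all genes.

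A second locus listed as DNA primase, CHLNCDRAFT_139037, went the other way from the primase large subunit. It had 9231, 9470.1 and 9297 normalized counts in WT and 4619, 4506 and 4501 in LOG OX1. Both groups were tight, with coefficients of variation of 1.32% and 1.48%, and log2FC was -1.04 ± 0.037 (SE). The list does not say which primase subunit or which compartment this locus serves.

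A locus listed as a helicase with DNA-directed DNA polymerase activity, CHLNCDRAFT_52598, carries a repair term and was also lower in LOG OX1. WT libraries had 1932, 2059 and 1849 normalized counts and LOG OX1 libraries 1054, 1060.4 and 1111. The groups did not overlap, and log2FC was -0.86 ± 0.048 (SE). A polymerase or primase name in the list therefore did not go with 1 direction.

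Ribonucleoside-diphosphate reductase, CHLNCDRAFT_34102, the enzyme that makes deoxynucleotides for DNA synthesis, had the largest difference of the 20 listed genes. In WT the libraries had 53.2, 76.2 and 54.2 normalized counts, and in LOG OX1 732, 720.4 and 772. All LOG OX1 libraries were far above WT, at a log2FC of 3.59 ± 0.10 (SE), a ratio of 12.1.

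Among the remaining listed genes, a DNA helicase, CHLNCDRAFT_25737, which unwinds DNA, had the largest log2FC, 2.24 ± 0.077 (SE). An uncharacterized protein, CHLNCDRAFT_17561, followed with 2.22 ± 0.30 (SE). That locus had only 9, 6 and 22 counts in WT, and without WT replicate 3 its log2FC was 2.87. The smallest were those of an uncharacterized repair protein, CHLNCDRAFT_48454, at 0.85 ± 0.047 (SE), and of origin recognition complex subunit 1, CHLNCDRAFT_139139, at 0.90 ± 0.077 (SE). Origin recognition complex subunit 1, part of the complex that marks replication origins, was thus close to polymerase epsilon in its difference.

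**Figure D4:**
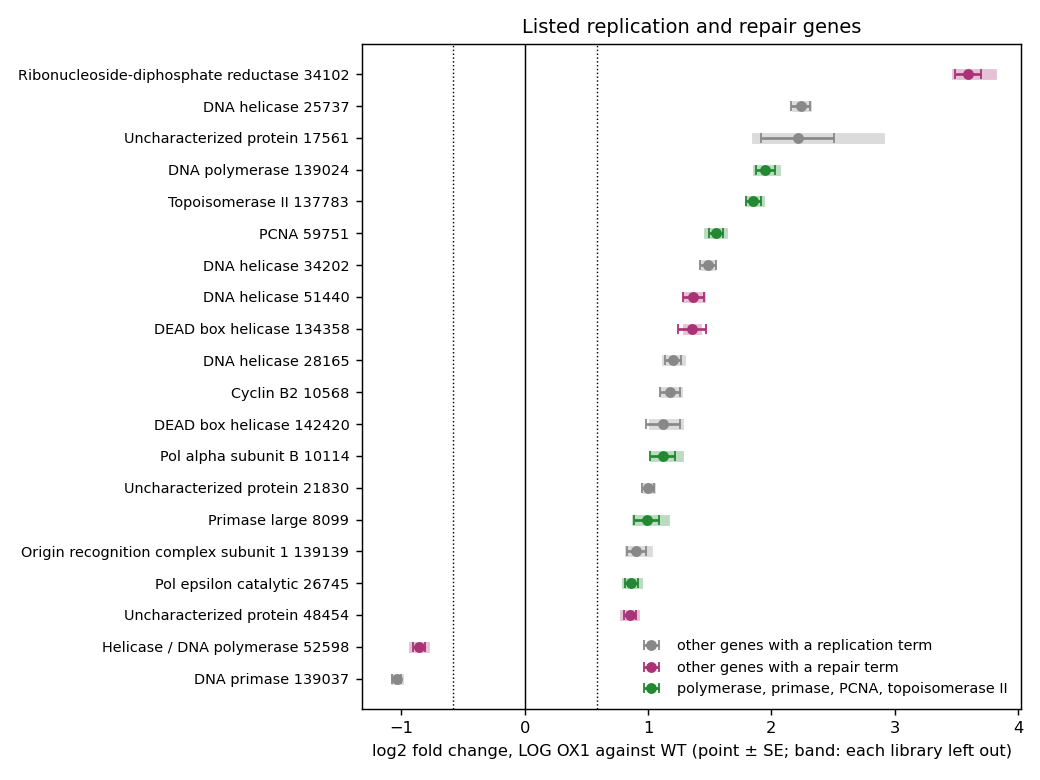
Log2 fold change of LOG OX1 against WT for the 20 listed replication and repair genes, with the standard error, and as a pale band the range over fits that leave out 1 library each. Green marks the 6 polymerase, primase, PCNA and topoisomerase II genes, which lie between 0.87 and 1.95, grey the other replication genes and purple the repair genes, and dotted lines mark a 1.5-fold change. DNA primase CHLNCDRAFT_139037 at -1.04 and the helicase and polymerase CHLNCDRAFT_52598 at -0.86 are the 2 genes on the left.

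The mean profile of the 6 genes over the 6 libraries was compared with that of each of the other 9095 genes tested, by the root mean square distance of centred log2 normalized counts. The nearest were CHLNCDRAFT_50418, CHLNCDRAFT_134943, CHLNCDRAFT_135413, CHLNCDRAFT_138861 and CHLNCDRAFT_136967, at distances of 0.017 to 0.035. Of these, CHLNCDRAFT_138861 is listed as ferredoxin, an electron carrier of photosynthesis, and the others carry no name in the list. Ferredoxin had 6064 ± 141 normalized counts in WT and 15680.1 ± 398 in LOG OX1 (SD, n = 3). Of the 6 members, PCNA lay nearest to their mean profile, at 0.10, and DNA polymerase farthest, at 0.29. The 5 nearest genes had log2FC between 1.36 and 1.41, and the measure says nothing of shared function or control.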

How the data were processed

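The members and the gene lists were chosen with earlier results of these data known. After trimming of the reads (Trim Galore) and alignment to the NC64A genome (HISAT2, default parameters), the authors obtained a read count for each gene from HTSeq and deposited it without normalization. Tool versions, the annotation release and the strand setting are not given in the sources used here, so counts of overlapping genes or near-identical copies are uncertain. No gene model directly before or after the 6 genes overlaps theirs in the version 1.0 reference used for gene order. Models farther away were not checked for overlap.

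Libraries were grouped by their titles. Genes kept by edgeR's filterByExpr (minimum count 10), 9101 of 9625, were fitted with TMM factors and the quasi-likelihood test in edgeR 4.0.16 (limma 3.58.1, R 4.3.3), with group as the only term and Benjamini-Hochberg adjustment over all genes tested. Log2 fold changes use a prior count of 0.125, and standard errors are the log2 fold change over the square root of F. The pattern comparison added 0.5 to normalized counts. Ratios, spreads and figures used Python 3.11.15 with numpy 2.4.6, pandas 2.3.3 and matplotlib 3.10.9. The edgeR and DESeq2 fits were also tested on simulated data, counts drawn with known fold changes. Among the 6 members depth limits precision most for polymerase alpha subunit B, with 140 counts in its lowest library. Values named were the 6 members, listed genes sharing a member's name or ribonucleotide reductase, the 2 largest and 2 smallest of the other listed genes, the 5 nearest in pattern, and CvarLOG1. A planned list of replication genes by symbol or product name is not given here. The reference table carries locus tags only, and the count tables show a symbol for only 34 genes. Alternatives comprised DESeq2 1.42.0, RLE or upper-quartile factors or none in place of TMM, a fit of unfiltered genes, a minimum of 10 counts in all libraries, a block on replicate number, and fits leaving out 1 library.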

Additional observations from a re-analysis of the deposited data

How the results depend on the processing

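The 6 genes were higher in LOG OX1 under each of the 13 alternatives, a direction that the choice of the genes already fixes. Upper-quartile factors shifted the median log2 fold change of all genes tested to 0.11 and raised that of all 6 genes by about as much, to 2.06 for DNA polymerase (CHLNCDRAFT_139024), 0.98 for polymerase epsilon (CHLNCDRAFT_26745), 1.23 for polymerase alpha subunit B (CHLNCDRAFT_10114), 1.10 for the primase large subunit (CHLNCDRAFT_8099), 1.66 for PCNA (CHLNCDRAFT_59751) and 1.96 for topoisomerase II (CHLNCDRAFT_137783). With them 1673 genes were called higher and 1068 lower, against 1274 and 1328 with TMM factors. In fits leaving out 1 library each, log2FC ranged from 0.83 to 0.91 for polymerase epsilon and from 1.89 to 2.03 for DNA polymerase. A minimum of 10 counts in all libraries left CHLNCDRAFT_17561 untested. When the genes nearest in pattern were chosen by Pearson's r, 0 of the 5 were shared, so those names depend on the measure. The library titles do not say whether the replicate numbers pair the samples. Deviations of same-numbered WT and LOG OX1 libraries correlated at -0.015, -0.00030 and -0.22 over 8926 genes. Those of differently numbered libraries correlated between -0.14 and 0.15, so these values do not settle whether cultures were paired. With the replicate number as a block 2603 genes were called in place of 2602. The planned level per coding length was not run, as no transcript lengths were used.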

Other observations

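Of the 12 genes next to the 6 loci in the reference annotation, 2 were called higher, 2 lower and 6 neither, and 2 had too few counts to be tested. Among all genes tested 14.0% were called higher and 14.6% lower, so nothing particular to the neighbours is read from these counts. The following were named after their values were seen. Beside DNA polymerase, CHLNCDRAFT_139023 had 78.1 normalized counts on average in WT and 503 in LOG OX1, with log2FC 2.68 ± 0.098 (SE) and an edgeR adjusted p of 3.41e-13. On the other side of DNA polymerase, CHLNCDRAFT_139025 had a log2FC of 0.60 ± 0.11 (SE), so the 2 neighbours called higher flank the same locus. Beside polymerase epsilon, CHLNCDRAFT_138974 had 1678 in WT and 384 in LOG OX1, with log2FC -2.12 ± 0.049 (SE) and an edgeR adjusted p of 7.97e-16. DNA polymerase and the lower DNA primase locus CHLNCDRAFT_139037 lie on the same stretch of the annotation with 10 genes between them, and their log2FC values were 1.95 and -1.04.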
